A study of Mus musculus with 36 samples.

Results

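Fc gamma receptors bind the constant part of IgG antibodies and decide how strongly a cell reacts to antibody-coated targets. The 5 genes followed here are the mouse receptor chains Fcgr1, Fcgr2b, Fcgr3 and Fcgr4 and the signalling subunit Fcer1g. Members were chosen by gene symbol among the probes of the deposited array table, and for each gene the probe was selected on its mean intensity over all arrays, the highest being kept. Of the 5 genes, 4 had a probe, 1 each, so the mean intensity decided nothing; no probe was annotated to Fcgr1, which is named only. The table covered 12394 genes in all. Fcgr2b, Fcgr3 and Fcer1g had values in brain, heart, kidney and liver, and Fcgr4 in kidney and liver only, which gave 3 members among 10224 genes in brain, 3 among 9669 in heart, 4 among 9614 in kidney and 4 among 8641 in liver.

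Fcgr1, Fcgr3 and Fcgr4 are activating receptors: each binds IgG on the outside and depends on Fcer1g, the common gamma chain, whose immunoreceptor tyrosine-based activation motif (ITAM) recruits the kinase Syk. Fcgr2b is the inhibitory receptor of the family: it signals through its own inhibitory motif (ITIM), which recruits the phosphatase encoded by Inpp5d and opposes the activating chains on the same cell. Myeloid cells such as macrophages, microglia and neutrophils carry members of both kinds, B cells carry Fcgr2b alone, and in mouse liver Fcgr2b is also abundant on sinusoidal endothelial cells, which clear small immune complexes.

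The study injected female FVB mice aged 6 to 8 weeks, which carried a luciferase transgene, with bacterial lipopolysaccharide (LPS), an activator of innate immunity. The arrays covered 3 groups: mock mice that received nothing, mice given LPS intraperitoneally at 4 mg/kg, and mice given the same LPS followed after 10 min by genipin, a small molecule from gardenia fruit. Brain, heart, kidney and liver RNA was hybridised to 36 one-colour arrays, 3 for each of the 12 combinations of tissue and treatment. It was taken 4 h after treatment in the LPS and LPS plus genipin groups. The labels give no time for the mock group. The design lists 25 mice and genipin at 1, 10 or 100 mg/kg; the dose of the arrayed mice, the promoter of the transgene, and whether the 3 arrays of a group were 3 mice are not stated in the labels. The p-values below therefore measure only the spread between these arrays, which may be technical. All groups share the transgene, and no group received genipin without LPS.

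Values were linear intensities normalized within each tissue, with array medians of 2096 to 2098 in brain, 1463 to 1464 in heart, 1811 to 1812 in kidney and 1252 to 1253 in liver; levels were therefore compared within a tissue and never between probes. Arrays of a group correlated at 0.982 to 0.997. The labelled tissues carried their own markers: neuronal markers summed to 225871 to 246148 in brain, cardiomyocyte markers to 321031 to 327421 in heart, proximal tubule markers to 234219 to 275338 in kidney and hepatocyte markers to 219732 to 232393 in liver. Some arrays stood apart. Skeletal muscle markers summed to 112506 to 118985 on the 3 mock brain arrays against 3416 to 3680 on the LPS and 3749 to 4086 on the LPS plus genipin brain arrays, and fat markers summed to 71391 to 79640 on the 3 LPS heart arrays against 1686 to 1812 on the mock and 1672 to 1774 on the LPS plus genipin heart arrays. Choroid plexus markers summed to 66070 to 66674 on the mock and 68228 to 68622 on the LPS plus genipin brain arrays against 3259 to 4170 on the 3 LPS brain arrays. In kidney, fat markers summed to 24486 to 25816 on the mock, 30344 to 35227 on the LPS and 48682 to 56582 on the LPS plus genipin arrays, and skeletal muscle markers to 772 to 906, 943 to 1049 and 3691 to 3881. Since each set is a whole group, no comparison of that group could be made without it.

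Fcgr2b, Fcgr4 and Fcgr3 are neighbours on mouse chromosome 1 with no other protein-coding gene between them, Fcer1g lies 7 protein-coding genes beyond Fcgr3, and Fcgr1 is on chromosome 3 (RefSeq genes of GRCm38.p6). The 250 bases before the start of each of the 3 clustered receptor genes are shown because these neighbours moved differently in the same tissue. Sequences are from RefSeq (GRCm38.p6), read 5′ to 3′ on the strand of the gene, with motif matches in capitals: Fcgr2b on the minus strand at chr1:170976072-170976321, Fcgr3 on the minus strand at chr1:171059404-171059653 (the first of 2 windows listed for this gene), and Fcgr4 on the plus strand at chr1:171018676-171018925.
Fcgr2b: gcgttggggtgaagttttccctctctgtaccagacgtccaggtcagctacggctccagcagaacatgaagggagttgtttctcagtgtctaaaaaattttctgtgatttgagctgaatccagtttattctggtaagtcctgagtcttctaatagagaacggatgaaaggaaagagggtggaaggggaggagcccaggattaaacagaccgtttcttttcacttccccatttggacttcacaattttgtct
Fcgr3: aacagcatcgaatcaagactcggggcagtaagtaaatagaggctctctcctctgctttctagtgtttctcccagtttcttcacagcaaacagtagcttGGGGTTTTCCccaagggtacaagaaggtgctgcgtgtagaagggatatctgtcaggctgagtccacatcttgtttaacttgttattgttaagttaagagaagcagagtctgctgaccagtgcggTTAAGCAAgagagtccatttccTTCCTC
Fcgr4: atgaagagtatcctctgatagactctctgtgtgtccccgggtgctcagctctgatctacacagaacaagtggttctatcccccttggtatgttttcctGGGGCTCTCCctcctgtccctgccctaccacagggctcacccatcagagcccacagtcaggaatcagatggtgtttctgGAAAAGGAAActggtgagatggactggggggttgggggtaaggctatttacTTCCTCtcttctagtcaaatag

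The motifs searched on both strands were GAGGAA (PU.1), TTCNNNGAA (the interferon-gamma activated site, GAS), TTGCNNAA (C/EBP), the interferon-stimulated response element (ISRE) and the NF-kB site. Among 26994 windows of the same length, 23.1% held the PU.1 letters, 7.17% GAS, 3.03% ISRE, 9.56% C/EBP and 3.75% NF-kB. The Fcgr4 window held a PU.1 match 22 to 17 bases before the start, an ISRE match 73 to 64 bases before it and an NF-kB match 152 to 143 bases before it. The Fcgr3 window held a PU.1 match 6 to 1 bases before the start, a C/EBP match 28 to 21 bases before it and an NF-kB match at the same 152 to 143 bases. The Fcgr1 window held PU.1 and GAS matches. The windows of Fcgr2b and Fcer1g held none of the 5 motifs. A match is a description of letters, not a bound site, and the windows are those of the reference strain.

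LPS changed every measured chain in every tissue, and the inhibitory receptor split the tissues: Fcgr2b was 8.77-fold higher in heart and 4.42-fold lower in liver, while the activating chains and Fcer1g rose wherever they were measured. The measured members passed the test (adjusted p under 0.05) between LPS and mock arrays in all cases: 3 of 3 in brain, where 33.9% of all genes passed, 3 of 3 in heart (47.1%), 4 of 4 in kidney (64.4%) and 4 of 4 in liver (66%). Genes that passed upwards made up 29.3% of those in liver, 25.3% in kidney, 18.2% in heart and 16.4% in brain. No member had overlapping LPS and mock arrays, a separation that 47.8% of brain, 54.1% of heart, 69.2% of kidney and 70.2% of liver genes shared. Between LPS plus genipin and LPS arrays, 1 of 3 members passed in brain (30.2% of genes), 2 of 3 in heart (41.9%), 2 of 4 in kidney (54.8%) and 4 of 4 in liver (54%). Separation without overlap was found in that comparison for 1 of 3 members in brain (39.1% of genes), 3 of 3 in heart (52.6%), 2 of 4 in kidney (61.9%) and 4 of 4 in liver (60.3%). Between LPS plus genipin and mock arrays, 3 of 3 passed in brain (14.5% of genes), 2 of 3 in heart (19.7%), 4 of 4 in kidney (44.3%) and 3 of 4 in liver (60.3%), and all measured members were separate, as were 68.7% of liver, 54% of kidney, 41.4% of heart and 41.4% of brain genes. In these 4 tissues many genes passed, so the counts say little about the family; the sizes and directions of single chains follow. Fewer cells of a type and less RNA per cell cannot be told apart in these tissue extracts.

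**Figure D1:**
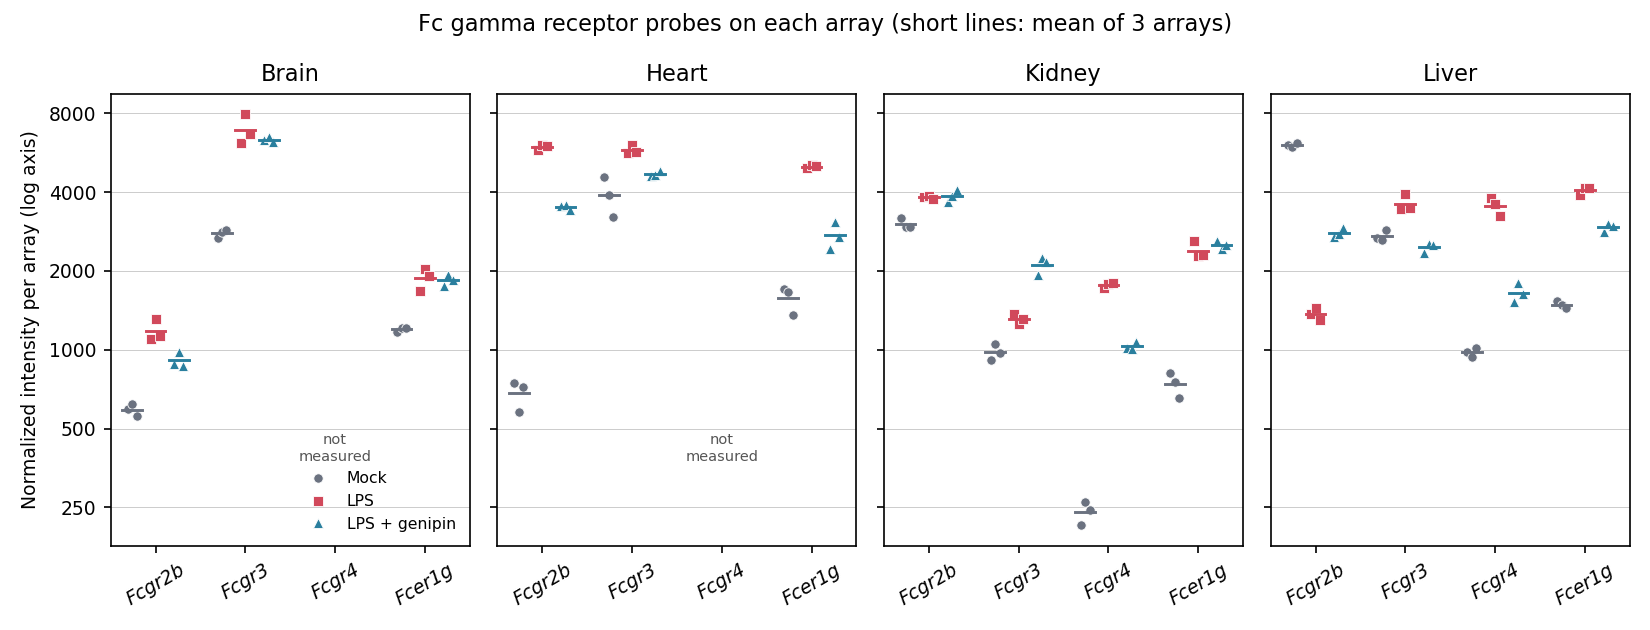
Normalized intensity of each Fc gamma receptor probe (log axis) on the 36 arrays, by tissue and treatment; points are arrays and short lines the means of 3 arrays. In liver the 3 LPS arrays of Fcgr2b lie between 1294 and 1440, below its mock arrays at 5924 to 6135, while the LPS arrays of the other 3 chains lie above their mock arrays.

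The inhibitory receptor Fcgr2b was highest in the mock group in liver. Its intensity was 6069, 5924 and 6135 on the 3 mock liver arrays, 1369, 1440 and 1294 on the LPS arrays and 2701, 2780 and 2908 on the LPS plus genipin arrays. The 3 groups did not overlap, and the order was mock, then LPS plus genipin, then LPS. Fcgr2b fell by 2.14 ± 0.05 on the log2 scale with LPS (SE, n = 3 arrays a group; limma, Benjamini-Hochberg adjusted p = 2.44e-08), a change at least as large as that of all but 2.62% of the genes measured in liver. With genipin after LPS it was 1.03 ± 0.05 higher than with LPS alone (adjusted p = 3.97e-06), 2.05-fold, and still 1.11 ± 0.05 below mock (log2 difference -1.11, adjusted p = 1.45e-06).

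In heart Fcgr2b moved the other way. Its intensity was 747, 580 and 722 on the mock heart arrays, 5815, 6028 and 6020 on the LPS arrays and 3553, 3567 and 3410 on the LPS plus genipin arrays. All 3 groups were separate, with the LPS arrays highest. The rise with LPS was 3.13 ± 0.09 on the log2 scale (adjusted p = 8.27e-08), and 0.693% of heart genes changed at least as much. Genipin after LPS lowered it (log2 difference -0.76 ± 0.09, adjusted p = 0.000413), and it remained 2.37 ± 0.09 above mock. The LPS heart arrays carried fat markers, and the part of these markers in the Fcgr2b values was not tested.

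In brain Fcgr2b intensity was 595, 619 and 559 on the mock arrays, 1104, 1306 and 1127 on the LPS arrays and 880, 981 and 871 on the LPS plus genipin arrays. The groups did not overlap and LPS was again highest. Fcgr2b rose by 0.99 ± 0.08 on the log2 scale with LPS (adjusted p = 9.52e-05), was lower with genipin after LPS (-0.37 ± 0.08, adjusted p = 0.0118), and stayed above mock (0.62 ± 0.08, adjusted p = 0.00204). The mock brain arrays carried the muscle markers, and the LPS brain arrays had choroid plexus sums far below both other groups (Ttr differed by -4.46 on the log2 scale between LPS and mock and by 4.47 between LPS plus genipin and LPS). The part of either in these Fcgr2b values was not tested. With the 6 LPS and LPS plus genipin arrays fitted alone the genipin difference kept its call (adjusted p = 0.041).

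Kidney gave the smallest change of the inhibitory receptor among the 4 tissues. Fcgr2b intensity was 3175, 2953 and 2936 on the mock kidney arrays, 3833, 3868 and 3768 on the LPS arrays and 3676, 3853 and 4069 on the LPS plus genipin arrays. The mock arrays were lowest, and the LPS arrays fell within the range of the LPS plus genipin arrays. Fcgr2b rose by 0.34 ± 0.05 on the log2 scale with LPS (adjusted p = 0.000486), a size that 45.9% of kidney genes reached, and the difference between LPS plus genipin and LPS was 0.01 ± 0.05 (adjusted p = 0.828).

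**Figure D2:**
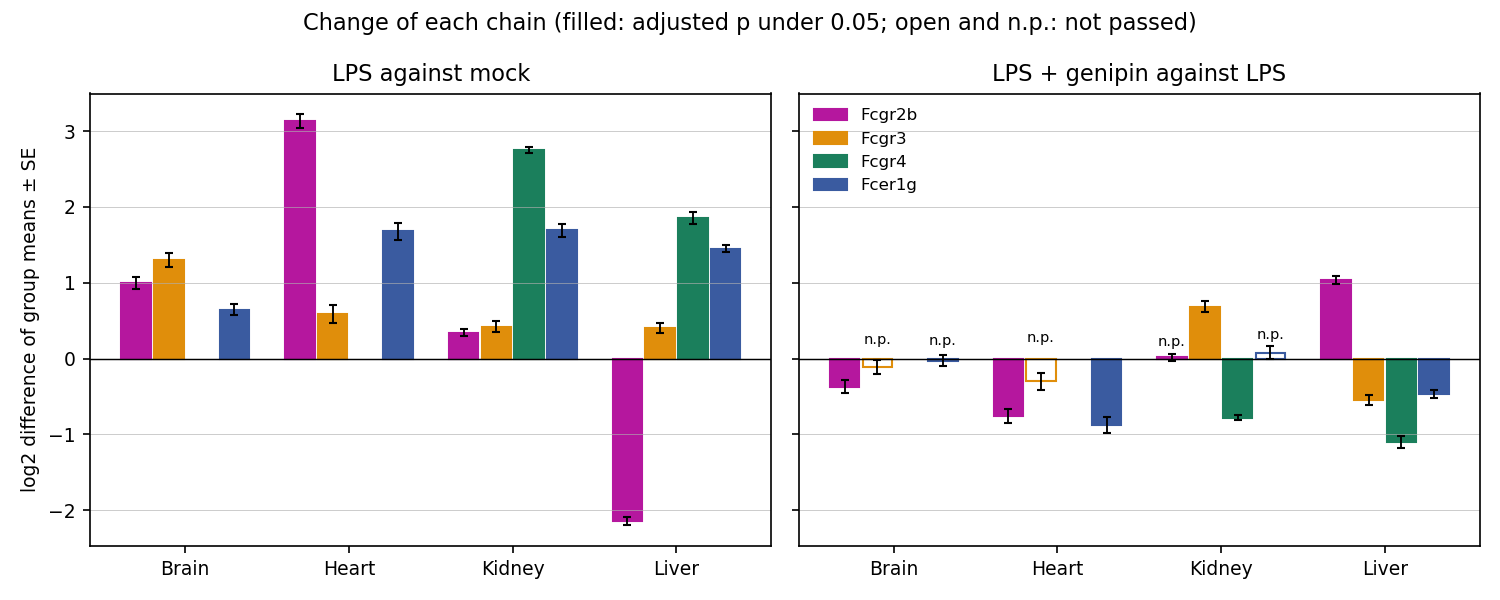
Log2 difference of group means ± SE (n = 3 arrays a group) for each chain and tissue, LPS against mock on the left and LPS plus genipin against LPS on the right; filled bars passed at adjusted p under 0.05, open bars marked n.p. did not. Fcgr2b is the one chain below 0 on the left (liver, -2.14) and is above 0 at 1.03 in liver on the right, where the other 3 liver bars are below 0.

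Fcgr3, a low-affinity activating receptor that needs Fcer1g, rose with LPS in all 4 tissues, most in brain. Its intensity was 2674, 2829 and 2863 on the mock brain arrays, 6143, 7946 and 6651 on the LPS arrays and 6317, 6504 and 6239 on the LPS plus genipin arrays. The mock arrays were lowest, and both LPS groups overlapped. The mock brain arrays also carried the muscle markers, and the LPS brain arrays had low choroid plexus sums. The part of either in the Fcgr3 values was not tested. The rise with LPS was 1.30 ± 0.09 on the log2 scale (2.47-fold, adjusted p = 3.58e-05), and LPS plus genipin differed from LPS by -0.11 ± 0.09 (adjusted p = 0.374).

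In heart Fcgr3 intensity was 4575, 3908 and 3217 on the mock arrays, 5629, 6074 and 5675 on the LPS arrays and 4626, 4634 and 4824 on the LPS plus genipin arrays. The mock arrays were widely spread, and the highest of them lay just under the lowest LPS plus genipin array. The LPS difference was 0.58 ± 0.12 on the log2 scale (adjusted p = 0.00379). The LPS heart arrays carried the fat markers, and the part of these markers in the Fcgr3 values was not tested. The difference between LPS plus genipin and LPS, -0.30 ± 0.12, missed the threshold (adjusted p = 0.0677) although the arrays did not overlap, as for 52.6% of heart genes. That call depended on the spread of the mock group: the adjusted p was 0.00819 with the 6 arrays of both LPS groups alone, 0.0221 without mock replicate 1 and 0.0152 without mock replicate 3. Against mock the LPS plus genipin arrays were 0.28 ± 0.12 higher (adjusted p = 0.126), or 0.40 higher (adjusted p = 0.0284) without mock replicate 1.

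Kidney was the one tissue in which Fcgr3 was higher with genipin than with LPS alone. Its intensity was 915, 1056 and 975 on the mock kidney arrays, 1374, 1251 and 1308 on the LPS arrays and 1932, 2244 and 2160 on the LPS plus genipin arrays. The groups were separate and stepped up from mock to LPS to LPS plus genipin. The first step was 0.42 ± 0.07 on the log2 scale (adjusted p = 0.00154) and the second 0.69 ± 0.07 (adjusted p = 0.000165), which left LPS plus genipin 2.15-fold above mock. The fat and skeletal muscle sums in kidney were also highest on the LPS plus genipin arrays (48682 to 56582 and 3691 to 3881), and their part in the Fcgr3 values was not tested.

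In liver Fcgr3 intensity was 2681, 2633 and 2878 on the mock arrays, 3460, 3922 and 3471 on the LPS arrays and 2352, 2529 and 2508 on the LPS plus genipin arrays. LPS arrays were highest and LPS plus genipin arrays lowest, without overlap. Fcgr3 rose by 0.40 ± 0.07 on the log2 scale with LPS (adjusted p = 0.000916) and was lower by 0.55 with genipin after LPS (-0.55 ± 0.07, adjusted p = 0.000301). The difference between LPS plus genipin and mock was -0.15 ± 0.07 and missed the threshold (adjusted p = 0.0853), passing without LPS replicate 2 (adjusted p = 0.0452). Fcgr3 and Fcgr2b have closely related IgG-binding parts, and whether their probes separate the 2 transcripts was not tested.

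Fcgr4, an activating receptor of myeloid cells in the mouse, gave the largest rise of the activating chains. In kidney its intensity was 213, 263 and 245 on the mock arrays, 1723, 1789 and 1793 on the LPS arrays and 1013, 1006 and 1072 on the LPS plus genipin arrays. The mock arrays lay at the bottom of the intensity range, 2 of 3 of them below the floor of 262.7 to which dim values were raised before taking log2, and the LPS plus genipin arrays sat between both other groups. The rise with LPS was 2.75 ± 0.04 on the log2 scale (adjusted p = 7.99e-10), or 2.88 without the floor; the floor holds the mock values together, so this SE is too small and the rise is understated. With genipin after LPS it was lower (-0.78 ± 0.04, adjusted p = 2.52e-06) and 1.97 ± 0.04 above mock. Probes had values on all arrays of a tissue or on none, and 4919 probes had none in kidney. Whether kidney Fcgr4 has values only because of its treated arrays was not tested.

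In liver Fcgr4 intensity was 979, 940 and 1018 on the mock arrays, 3793, 3619 and 3234 on the LPS arrays and 1525, 1798 and 1634 on the LPS plus genipin arrays. The order was the same as in kidney and no groups overlapped. LPS raised it by 1.86 ± 0.08 on the log2 scale (3.62-fold, adjusted p = 4.99e-07), LPS plus genipin differed from LPS by -1.10 ± 0.08 (adjusted p = 2.46e-05), and it stayed 0.75 ± 0.08 above mock (adjusted p = 0.000107).

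Fcer1g, the shared signalling subunit of the activating receptors, rose with LPS in all 4 tissues, by 1.45 to 1.69 on the log2 scale in heart, kidney and liver and by less in brain. In kidney its intensity was 817, 750 and 657 on the mock arrays, 2594, 2272 and 2308 on the LPS arrays and 2611, 2434 and 2518 on the LPS plus genipin arrays. Both LPS groups overlapped and lay above mock. The LPS rise was 1.69 ± 0.09 (adjusted p = 1.36e-06), and the difference with genipin 0.08 ± 0.09 (adjusted p = 0.473).

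In heart Fcer1g intensity was 1701, 1660 and 1360 on the mock arrays, 4939, 5062 and 5018 on the LPS arrays and 2432, 3087 and 2701 on the LPS plus genipin arrays. The LPS plus genipin arrays lay between the others without overlap. The LPS heart arrays carried the fat markers, and the part of these markers in the Fcer1g values was not tested. The subunit rose by 1.68 ± 0.11 on the log2 scale (adjusted p = 8.34e-06), was lower with genipin than with LPS alone (-0.88 ± 0.11, adjusted p = 0.000464) and stayed 0.80 ± 0.11 above mock (adjusted p = 0.00207).

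In liver Fcer1g intensity was 1534, 1482 and 1442 on the mock arrays, 3896, 4135 and 4151 on the LPS arrays and 2812, 3022 and 2968 on the LPS plus genipin arrays, again with LPS highest and mock lowest. LPS raised it by 1.45 ± 0.05 on the log2 scale (adjusted p = 1.37e-07), and it was lower with genipin after LPS (-0.47 ± 0.05, adjusted p = 0.000161). In brain the values were 1171, 1214 and 1206 on the mock arrays, 1683, 2038 and 1919 on the LPS arrays and 1745, 1932 and 1847 on the LPS plus genipin arrays. The 2 treated groups overlapped there: the LPS rise was 0.65 ± 0.07 (adjusted p = 0.000548), and the genipin difference was -0.03 ± 0.07 (adjusted p = 0.823). Muscle and choroid plexus markers also differed among the brain groups, and their part in the Fcer1g values was not tested.

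To compare activating with inhibitory chains, the log2 difference between each gene and Fcgr2b was taken on each array and the groups were compared on that scale. In liver each activating chain rose relative to Fcgr2b with LPS, and was lower on that scale with genipin after LPS than with LPS alone. Relative to Fcgr2b and to the mock mean, Fcgr4 stood at 3.95 to 4.10 on the LPS liver arrays and at 1.79 to 2.00 on the LPS plus genipin arrays, Fcer1g at 3.53 to 3.71 and 2.05 to 2.14, and Fcgr3 at 2.48 to 2.59 and 0.93 to 1.01. No group overlapped another. The LPS shifts were 4.00 ± 0.07 for Fcgr4, 3.59 ± 0.07 for Fcer1g and 2.55 ± 0.06 for Fcgr3 (adjusted p = 1.18e-10, 1.19e-10 and 3.04e-10), and the genipin shifts were -2.14 ± 0.07, -1.50 ± 0.07 and -1.59 ± 0.06 (adjusted p = 4.37e-08, 1.21e-07 and 5.53e-08). Because Fcgr2b itself moved far, 99.3% of liver genes differed from it between LPS and mock and 95.5% between LPS plus genipin and LPS, so these calls are not particular to the activating chains.

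In heart the same measure ran the other way: Fcgr3 and Fcer1g rose less than Fcgr2b, by -2.55 ± 0.15 and -1.46 ± 0.16 (adjusted p = 3.00e-11 and 9.87e-08), as 99.6% of heart genes differed from Fcgr2b there. Over the alternatives run, these adjusted p-values reached at most 3.99e-06 and 0.000119. Between LPS plus genipin and LPS, Fcgr3 was 0.46 ± 0.15 higher relative to Fcgr2b (adjusted p = 0.00993; 88.2% of genes passed), and the value for Fcer1g was -0.11 ± 0.16 (adjusted p = 0.492).

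Fcgr2b changed least in kidney. Fcgr4 gained 2.41 ± 0.07 and Fcer1g 1.35 ± 0.09 over Fcgr2b with LPS (adjusted p = 2.49e-11 and 5.28e-08; 80.9% of kidney genes passed, 11.5% upwards), whereas Fcgr3 differed by 0.08 ± 0.09 (adjusted p = 0.431). Fcgr4 lay at the floor on 2 of the 3 mock kidney arrays, so its 2.41 depends on the floor and ranged from 2.05 to 2.54 over the alternatives. With genipin after LPS Fcgr3 was 0.67 ± 0.09 higher and Fcgr4 lower (-0.79 ± 0.07) relative to Fcgr2b (adjusted p = 7.87e-05 and 2.36e-06; 48.5% of genes passed).

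In brain the shifts were small. With LPS Fcgr3 rose more than Fcgr2b, by 0.31 ± 0.10 (adjusted p = 0.00768), and Fcer1g rose less, by -0.35 ± 0.10 (adjusted p = 0.00346). Here 97.8% of brain genes differed from Fcgr2b, and 1.09% of all brain genes did so upwards. Fcer1g was 0.34 ± 0.10 higher relative to Fcgr2b with genipin after LPS (adjusted p = 0.00776; 66.3% of genes passed). The value for Fcgr3, 0.26 ± 0.10, passed (adjusted p = 0.0328) but was lost with the 6 arrays of both groups alone (adjusted p = 0.0619) and without any 1 of 5 of the 9 arrays, namely mock replicates 1 and 2, LPS replicate 1 and LPS plus genipin replicates 1 and 3 (adjusted p = 0.0512 to 0.103).

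**Figure D3:**
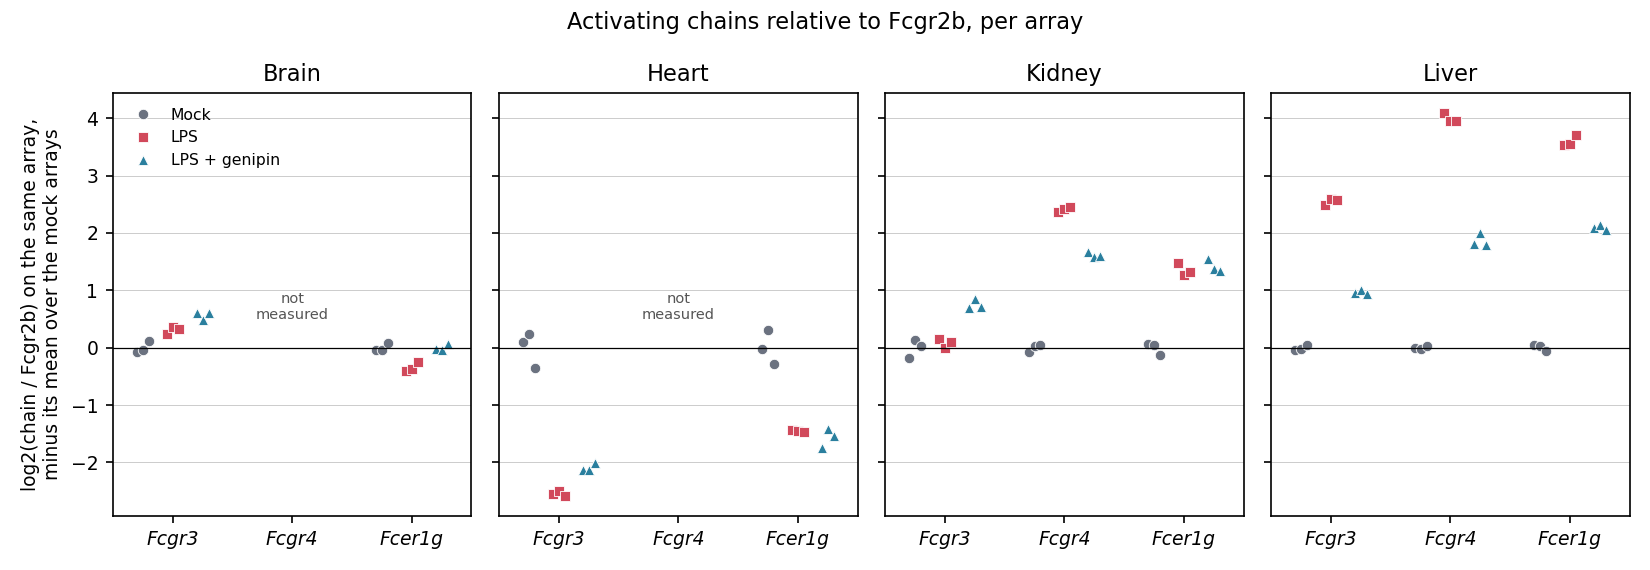
Log2 ratio of each activating chain to Fcgr2b on the same array, minus its mean over the mock arrays of the tissue (vertical axis), for the 3 treatments; points are arrays. In liver all LPS points lie between 2.48 and 4.10 and all LPS plus genipin points between 0.93 and 2.14, whereas in heart both treated groups lie below 0.

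The responses were also compared among tissues, as changes within each tissue rather than levels. Mock brain, LPS brain, LPS heart and LPS plus genipin kidney arrays stood apart in muscle, choroid plexus or fat markers, as given above. The part of these markers in the differences among tissues was not tested. For the LPS response, Fcgr2b ranged from -2.14 in liver to 3.13 in heart (limma F test over 4 tissues, F = 831, adjusted p = 1.47e-24), Fcer1g from 0.65 in brain to 1.69 in kidney (F = 32.0, adjusted p = 1.95e-08) and Fcgr3 from 0.40 in liver to 1.30 in brain (F = 20.9, adjusted p = 1.00e-06). Of the 6861 genes measured in all 4 tissues, 76.8% passed this test. For LPS plus genipin against LPS, where 74.5% of genes passed, Fcgr2b ranged from -0.76 in heart to 1.03 in liver (adjusted p = 1.33e-13), Fcgr3 from -0.55 in liver to 0.69 in kidney (adjusted p = 2.23e-08) and Fcer1g from -0.88 in heart to 0.08 in kidney (adjusted p = 2.72e-07). Fcgr4, tested between kidney and liver, rose more in kidney with LPS (2.75 against 1.86, adjusted p = 1.06e-06; 50.6% of 7792 genes passed) and differed less with genipin there (-0.78 against -1.10, adjusted p = 0.0138; 38.1% of genes).

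Among all genes, the profiles most like each chain were ranked by Pearson correlation of log2 values over arrays with each tissue's mean removed. The arrays share tissues and treatments, so these rankings are descriptions only. Over 36 arrays, Fcgr2b was nearest to Tgfbr3 (0.90), the transforming growth factor beta co-receptor, followed by Arrdc2 (0.812), Mpdu1 (0.810), the receptor kinase Tgfbr2 (0.804) and the mannose receptor Mrc1 (0.798). Its correlation with Fcgr3 was 0.332 and with Fcer1g 0.284, which placed them 717th and 943rd among 6860 genes. Fcer1g was nearest to the haematopoietic signalling gene Vav1 (0.981), then Slc15a3 (0.965), the transcription factor gene Spi1 that encodes PU.1 (0.957), the calprotectin subunit S100a9 (0.956) and Serpina3f (0.955). Fcgr3 was nearest to Plin4 (0.858), Serping1 (0.848), Ccl9 (0.838), Tbc1d9b (0.829) and Adamts2 (0.810), and correlated with Fcer1g at 0.690. Over the 18 arrays of kidney and liver, Fcgr4 was nearest to Epop (0.991), Phf11d (0.991), Tor3a (0.990), Ifi47 (0.990) and Casp4 (0.990), and correlated with Fcer1g at 0.942 and with Fcgr2b at -0.39.

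The gene lists below are read against all genes, of which 16.4% rose and 17.5% fell with LPS in brain, 18.2% and 28.9% in heart, 25.3% and 39.1% in kidney, and 29.3% and 36.8% in liver. Between LPS plus genipin and LPS, 16.3% of all genes were higher and 13.8% lower in brain, 22.1% and 19.9% in heart, 32.2% and 22.7% in kidney, and 29.3% and 24.7% in liver. Downstream of the activating chains, ITAM signalling genes moved up with LPS more often than down. Of the listed kinases and adaptors, 6 of 15 measured rose and 0 fell in brain (median log2 difference 0.25 beside -0.00225 over all genes), 11 of 17 rose and 2 fell in heart (0.51 beside -0.06), 11 of 15 rose and 1 fell in kidney (0.35 beside -0.09), and 14 of 18 rose and 2 fell in liver (0.97 beside -0.03). In liver the Src-family kinase gene Fgr rose by 2.49 on the log2 scale, the adaptor gene Lcp2 by 2.26 and the protein kinase C gene Prkcd by 1.76. Vav1, an exchange factor that acts after Syk, rose by 1.57 in heart and 1.71 in kidney, and Prkcd by 1.33 in brain. With genipin after LPS, 8 of 18 were lower and 3 higher in liver, 6 of 17 lower and 2 higher in heart, 5 of 15 lower and 2 higher in kidney, and 3 of 15 lower and 4 higher in brain.

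Of the phosphatases and adaptors through which ITIM receptors signal, 0 of 9 rose and 3 fell in brain with LPS (median log2 difference -0.15 beside -0.00225 over all genes), 4 of 9 rose and 1 fell in heart (0.39 beside -0.06), 5 of 8 rose and 2 fell in kidney (0.24 beside -0.09), and 3 of 7 rose and 2 fell in liver (0 beside -0.03). Inpp5d, the phosphatase gene of Fcgr2b signalling, fell in brain by 0.59 on the log2 scale and was 0.72 higher with genipin after LPS than with LPS alone. The adaptor gene Dok1 rose by 1.81 in heart, was lower there with genipin (-1.64), and rose by 0.87 in kidney. Of the other ITIM receptors 5 of 8 rose and 0 fell in liver, where Fcgr2b fell: Lilrb4a by 2.61, Siglece by 0.82 and Pirb by 0.72. In heart 4 of 7 rose and 1 fell, Lilrb4a by 2.28, in kidney 4 of 7 rose and 2 fell, and in brain 0 of 4 rose and 1 fell.

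Of the further receptors and the adaptor that pair with Fcer1g or with Tyrobp, another ITAM adaptor, 0 of 4 rose and 3 fell with LPS in brain (Siglech, Trem2 and Tyrobp), 1 of 5 rose in heart (Clec4d, by 3.09), and 0 of 2 in kidney and 0 of 3 in liver passed. Tyrobp fell by 0.19 in brain; its log2 differences in kidney and liver were 0.25 and -0.03 (adjusted p = 0.0521 and 0.711). When genipin followed LPS, 2 of 4 were higher in brain (Tyrobp by 0.48, Trem2 by 0.44), 2 of 5 higher and 1 lower in heart (Clec4e by 1.12, Clec4n by 0.76 and Clec4d by -0.76), 1 of 2 higher in kidney (Tyrobp by 0.64), and 0 of 3 passed in liver. Of the other antibody receptors, 0 of 3 rose and 1 fell with LPS in brain, 0 of 4 rose and 2 fell in heart, 3 of 6 rose and 1 fell in kidney, and 1 of 3 rose and 2 fell in liver. Those that rose were Fcer2a (0.65), Pigr (0.61) and Fcmr (0.56) in kidney and Pigr (0.38) in liver. Fcgrt, the neonatal receptor that recycles IgG, fell in heart (-0.27), kidney (-0.32) and liver (-0.39) and had a difference of -0.33 in brain (adjusted p = 0.0765).

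Effector genes of antibody-triggered uptake rose in part. Of the phagocytosis and NADPH oxidase genes, 5 of 9 rose in brain and 0 fell, 5 of 11 rose and 0 fell in heart, 7 of 10 rose and 0 fell in kidney, and 5 of 9 rose and 2 fell in liver. Their median log2 differences were 0.30, 0.16, 0.36 and 0.30 in that order of tissues. The oxidase gene Cybb rose by 2.00 in heart, 2.22 in kidney and 1.31 in liver, and Ncf4 by 0.65 in brain. Regulators in the interferon-gamma pathway and of myeloid genes rose in 4 of 10 and fell in 2 cases in brain, 7 and 1 in heart, 8 and 1 in kidney, and 7 and 1 in liver, with median log2 differences of 0.17, 1.16, 1.26 and 1.09. Irf1, an interferon-responsive transcription factor gene, rose by 2.07, 2.47 and 3.73 in brain, heart and kidney. It was lower with genipin after LPS in each of these tissues (-1.62, -1.60 and -1.74). In liver Irf1 was not among the 3 largest changes of this list and is not given. The largest change of this list in brain was that of Jak2, which went the other way. Jak2 fell there with LPS (-3.196 ± 0.645, adjusted p = 0.00731) and was higher with genipin after LPS (2.403 ± 0.645, adjusted p = 0.0262). Of the 10 regulators, 1 was higher and 2 lower with genipin after LPS in brain. The counts were 3 and 6 in heart, 0 and 7 in kidney, and 3 and 6 in liver. In liver Irf8, a regulator of macrophage genes, rose by 2.10 and was lower with genipin (-1.28). Socs1, a feedback inhibitor of cytokine receptors, rose by 3.33 in kidney and 3.04 in liver.

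Markers of the cells that carry these receptors moved as well, and their part in the results was not tested. In liver, 2 of 7 macrophage markers rose and 4 fell with LPS (summed intensity 22969 to 24814 on mock, 25116 to 27335 on LPS and 23916 to 24680 on LPS plus genipin arrays, with Cd163 at the floor on all LPS arrays); Mpeg1 rose by 0.95 on the log2 scale and Mrc1 fell by 1.5. Of 5 Kupffer cell markers 2 rose and 2 fell (median log2 difference 0.28, sums 19393 to 20972, 49801 to 54033 and 42766 to 45891). The largest change among them was that of Marco, which rose by 2.64. Of 5 sinusoidal endothelial markers 1 rose and 4 fell (sums 28443 to 29666, 21057 to 22706 and 20411 to 21872): Lyve1 rose by 2.96, and the log2 differences of the 4 that fell were -1.56 for Oit3, at the floor on all LPS arrays, -1.15 for Clec4g, -0.61 for Stab2 and -0.28 for Stab1. Of 6 endothelial markers 2 rose and 3 fell (median log2 difference -0.37, sums 9027 to 9933, 6614 to 6776 and 6127 to 6629). Kdr and Tek changed most among them, by -3.48 and -2.03. All 3 neutrophil markers rose (sums 4112 to 4374, 87965 to 92270 and 61776 to 66492), S100a8 by 4.75.

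In brain the receptor chains and the microglial markers moved in opposite directions. All 6 microglial markers fell with LPS (sums 12066 to 12597 on mock, 4299 to 4866 on LPS and 8080 to 8491 on LPS plus genipin arrays), with log2 differences of -2.41 for Gpr34, at the floor on all LPS arrays, and -2.27 for Cx3cr1. With genipin after LPS 4 of 6 were higher, Cx3cr1 by 1.42. Of 6 macrophage markers 1 rose and 5 fell (sums 18999 to 20364, 13462 to 15908 and 20242 to 21394), and of 5 neutrophil markers S100a8 and S100a9 rose and Csf3r fell. Of 3 choroid plexus markers Ttr and Kl fell with LPS (log2 differences -4.46 and -0.75), and Folr1 lay at the floor on all mock and LPS arrays; all 3 were higher with genipin after LPS than with LPS alone, by 4.47, 2.25 and 0.65. The Ttr intensities on mock and LPS plus genipin arrays lay near the highest on any array, so the size of its difference is not exact.

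In heart 3 of 7 macrophage markers rose and 2 fell (sums 22174 to 23969 on mock, 19885 to 22191 on LPS and 22786 to 24044 on LPS plus genipin arrays), and all 4 neutrophil markers rose (sums 3515 to 4100, 45052 to 49010 and 18983 to 20180). In kidney 4 of 6 macrophage markers rose and 1 fell (sums 12811 to 13202, 16817 to 17363 and 20170 to 20782), and both neutrophil markers rose (sums 794 to 918, 6211 to 8110 and 5923 to 6167). Kidney Fcgr3 and the macrophage sum share the order mock, LPS, LPS plus genipin. So do the kidney sums of fat, skeletal muscle and hepatocyte markers (the last 1350 to 1420, 2804 to 3122 and 6169 to 7231). The Kupffer cell sum in kidney was lowest with LPS plus genipin (2850 to 3327, 4105 to 5296 and 1737 to 2282). The part of any of these in the Fcgr3 values was not tested. Cd79a, the only 1 of 5 listed B cell markers measured in liver, lay at the floor on all mock liver arrays. In liver it rose by 0.71 on the log2 scale with LPS and was lower with genipin after LPS (-0.68). The size of its rise depends on the floor. A value at the floor cannot show whether B cells were absent, and their part in the Fcgr2b values was not tested.

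**Figure D4:**
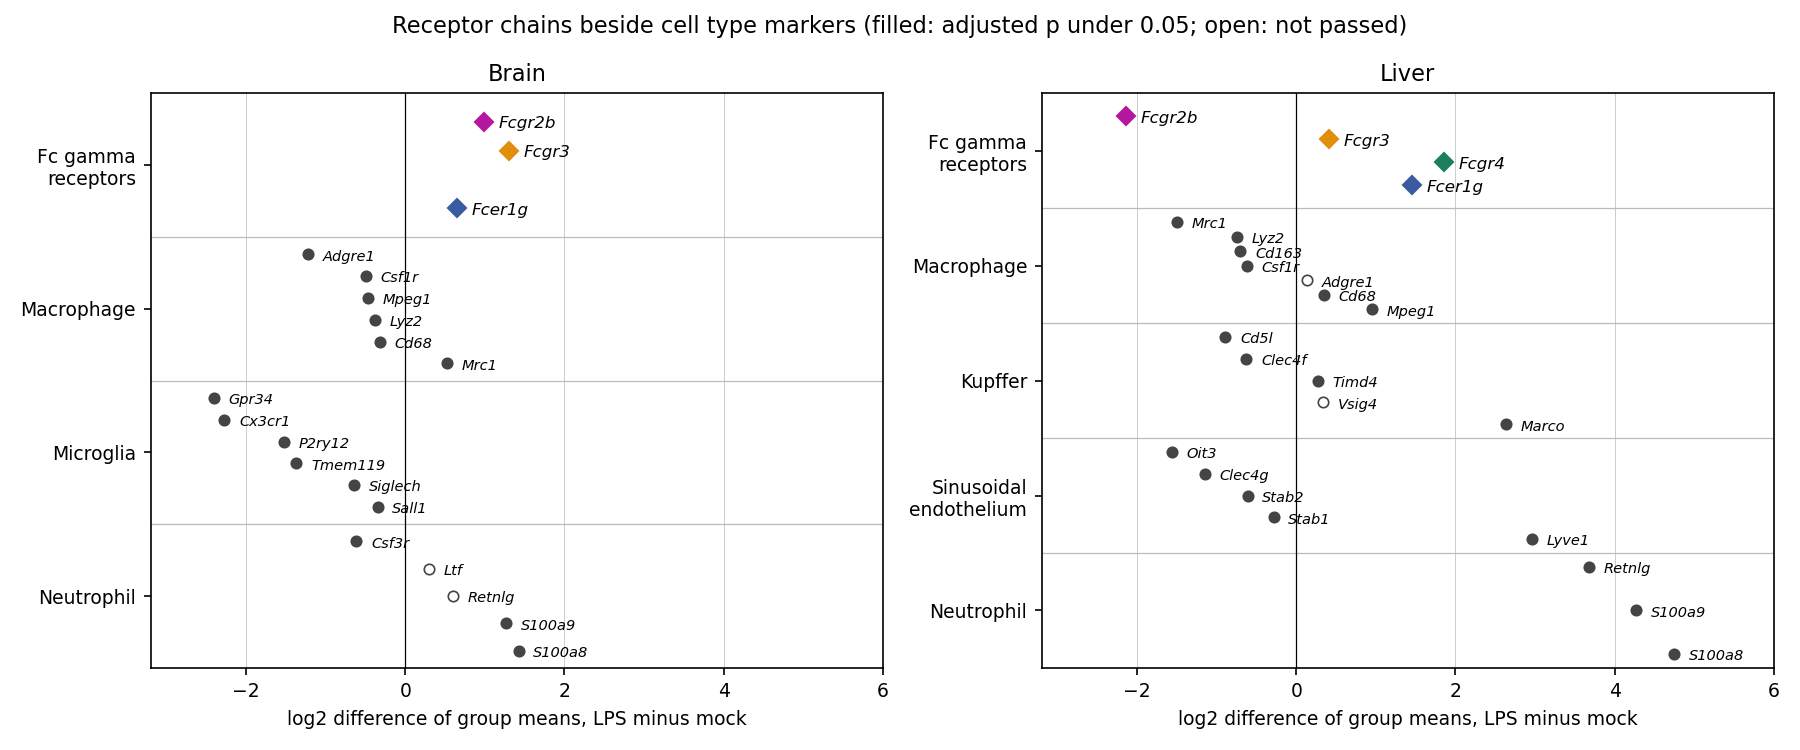
Log2 difference between LPS and mock group means (horizontal axis) for the Fc gamma receptor chains and for measured markers of macrophages, microglia and neutrophils in brain (left) and of macrophages, Kupffer cells, sinusoidal endothelium and neutrophils in liver (right); points are genes, filled where adjusted p was under 0.05. In brain the chains lie between 0.65 and 1.30 while all 6 microglial markers lie below 0; in liver Fcgr2b at -2.14 lies below the markers drawn, and Kdr, an endothelial marker that is not drawn, lies lower still at -3.48.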

How the data were processed

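Total RNA from 36 tissue samples was labelled with Cy5 and hybridised to one-colour arrays, per the labels' protocols. The deposited values are linear intensities without counts or depth; arrays of a tissue had nearly identical distributions, and the submitters' processing notes name limma without a version or role. No file names a genome build or scanner. Of 18183 probes, 14817 had 1 gene symbol and 3366 none; 2318 symbols were updated through RefSeq names.

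Intensities were raised to the 5th percentile (262.7) and log2-transformed, and each gene was represented in a tissue by its brightest measured probe. Each tissue was fitted alone with limma 3.58.1 in R 4.3.3 (group means, 9 arrays), with Benjamini-Hochberg adjustment over all genes and a threshold of 0.05. The comparison with Fcgr2b used the same model on per-array log2 differences. Because all genes then share the Fcgr2b values, their moderated p-values are not independent of it and may be too small. The test was therefore repeated with each gene's own variance. Comparisons of LPS with mock and of LPS plus genipin with LPS share the LPS arrays, and values are given side by side. The scripts were tested on simulated data. The members and gene lists were chosen with earlier results of these data known. Named genes were all members, up to 3 genes with the largest change in each list, tissue and comparison, genes of counts of 5 or fewer, and the 5 closest profiles of each member. Same-numbered arrays deviated together in 9 of 36 correlations (over 0.1; range -0.53 to 0.26, 5 of 9 in brain). All 3 were over 0.1 (0.143, 0.193 and 0.179) only between LPS and LPS plus genipin in brain. By the rule used this is a hint of pairing, from the data and not from the labels. Arrays with different numbers were not compared in this way, so a pairing is not established. The number of arrays, 3 a group, limits the precision. Alternatives are in the closing section.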

Additional observations from a re-analysis of the deposited data

Results flagged for a closer look

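The responses of the chains differed among tissues by the F test of the tissue by treatment term. For LPS against mock the adjusted p was 1.47e-24 for Fcgr2b, 1.95e-08 for Fcer1g and 1.00e-06 for Fcgr3 over 4 tissues, and 1.06e-06 for Fcgr4 between kidney and liver. For LPS plus genipin against LPS it was 1.33e-13 for Fcgr2b, 2.23e-08 for Fcgr3, 2.72e-07 for Fcer1g and 0.0138 for Fcgr4. In both comparisons most genes measured in all 4 tissues passed the same test (76.8% and 74.5%). Each of these results kept its call without the floor, with arrays centred on the median and with treatment and number as a random block. Fat, muscle or choroid plexus markers set groups of brain, heart and kidney arrays apart, and their part in these differences was not tested.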

How the results depend on the processing

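No result reversed under the alternatives run: no floor or a floor at the 10th percentile, median centring, quantile normalization once more, an intensity trend or robust prior variance, 6 arrays, the mean of all probes, the replicate number as a block, and leaving out each array. Of the values for single chains, 751 kept their call and 5 gained one, all Fcgr3 in heart or liver as given above. The mean of all probes left the difference of each chain unchanged, since each had 1 probe, so the calls kept under it add little. Of the comparisons with Fcgr2b, 534 kept their call and 6 lost it, all Fcgr3 in brain between LPS plus genipin and LPS. Without variance moderation, an alternative chosen after seeing the data, these comparisons kept their calls.

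With the 6 arrays of the compared groups alone, brain calls between LPS plus genipin and LPS were 1906 (3083 with 9 arrays) and against mock 2260 (1484 with 9), and 1 chain in place of 2 passed against Fcgr2b between LPS plus genipin and LPS in brain. Leaving out 1 array gave 852 to 1822 calls in brain between LPS plus genipin and mock (852 without mock replicate 1, 956 without mock replicate 2, 869 without mock replicate 3, 917 without LPS plus genipin replicate 2), 2265 to 3715 in brain between LPS and mock (3464 with all, lowest without mock replicate 3), 1204 to 2362 in heart between LPS plus genipin and mock (1903 with all; 1260 without mock replicate 2, 1204 and 1207 without LPS plus genipin replicates 1 and 2), and 1 to 2 chains against Fcgr2b in brain.

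The labels give all groups replicate numbers 1 to 3, without a stated pairing. With the replicate block the calls moved from 3083 to 3123 in brain between LPS plus genipin and LPS, where same-numbered arrays weakly deviated together. Between LPS and mock they moved from 3464 to 3433 in brain and from 4555 to 4069 in heart. No call of a chain changed. As a random block over tissues the correlation was 0.093. The planned fit with each other probe of a chain was not run, since each chain had 1 probe. Kidney Fcgr4 lay at the floor on 2 of 3 mock arrays, so its LPS rise depends on it (2.39 with the floor at the 10th percentile, 2.88 with none).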
